A study of Homo sapiens with 6 samples.

Results

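Mitosis and spindle genes were followed in pLUM and pLB, a luminal and a luminobasal line of the T47D breast cancer family. The group holds 50 genes, listed by symbol, whose products drive entry into mitosis, build the spindle, attach chromosomes to it, police that attachment, separate the sister chromatids and divide the cell. They were found as the gene spots of each array that carry a member's name, and 62 probes on 134 spots per array did so, of 34127 gene probes for 25940 named genes. All 50 genes had a probe above background and were tested, with 61 of the 62 probes, among 17670 genes and 23105 probes tested in all. The rule that lists them uses no measured value, but the members were chosen with earlier results of these data known.

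pLUM were CLD3+CD49f- cells taken from an E tumor and kept in 1 nM estradiol (E), which they received for 72 h before the arrays. pLB were CLD3-CD49f+ cells taken from an E+P tumor, grown with estradiol and progesterone, and kept under EWD, the withdrawal of estrogen. Each line had 3 replicates, all from xenografts of T47Dco cells in ovariectomized mice and all from sorted cells. Each line came from sorted cells of 1 tumor culture, so the 3 replicates are separate sorts of the same line, and p-values here measure the spread between sorts. Line, tumor of origin and hormone changed together and cannot be told apart. The cells were stained for CK5 and sorted again before RNA was taken, and which CK5 fraction was hybridized is not given in the sources used here.

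A dividing cell passes into mitosis when cyclin A and cyclin B accumulate and switch on the kinase CDK1, which the CDC25 phosphatases release from inhibition. Aurora and Polo-like kinases then mature the centrosomes and the spindle, the NDC80 complex and its partners bind chromosomes to microtubules, and the BUB and MAD proteins hold the cell until every chromosome is attached. Release comes through CDC20 and the anaphase-promoting complex (APC/C), which marks cyclin B and securin for destruction. Most of these genes are transcribed late in the cycle, under the DREAM and MuvB complexes, FOXM1 and NF-Y, and their summed RNA is widely read as a measure of how many cells are dividing. In RNA from a whole population, more cells in mitosis and more RNA per mitotic cell cannot be told apart.

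Values below are normalized log2 signals, that is, the log2 of a probe's intensity over the 75th percentile of its own array, so that 0 is a fairly bright spot and each step of 1 is a doubling. Values of a line are always listed for replicates 1, 2 and 3 in that order, and ± after a change is its standard error. A gene was called when its lines differed at least 2-fold with an adjusted p under 0.05 in limma, with the adjustment made over all 23105 probes. On the arrays the 75th percentile ran from 450 to 873 in intensity units, 21285 to 22775 probes stood above background and no gene spot was saturated. Arrays of a line correlated at 0.972 to 0.991 over the tested probes, and arrays of different lines at 0.780 to 0.806. pLB replicates 2 and 3 were on one slide and all other arrays on another, so a fit with slide as a block compares pLB replicate 1 with the 3 pLUM arrays. The markers matched the labels, with 7 of 8 luminal markers called lower in pLB and 8 of 8 luminobasal markers called higher. Of 11 markers of stroma, vessels and blood, 6 were tested and 3 were called higher in pLB, namely COL1A2 (at least 11.5-fold), CD68 (1.52 on the log2 scale) and VWF (at least 1.80-fold), while PECAM1, COL3A1, PDGFRB and HBB stood above background on no array. COL1A1, CDH5 and PTPRC stood above background on all arrays and were not called, at -0.56, 0.51 and -0.47. CD3E stood above background on 1 array of each line. The part of such markers in the results below was not tested.

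The mitosis genes did not move as a block. In pLB, 14 of the 50 were called higher, or 28%, where 22.7% of all tested genes were called higher. A further 5 were called lower, or 10%, where 23% of all tested genes were called lower, and 31 were not called. The median log2 fold change of the members was 0.35, beside 0.03 for all genes, and the values ran from -1.29 for BUB3 to 2.39 for SPC25. Large differences were scarce among them. A called change of at least 4-fold was seen in 1 of the 50, SPC25, or 2%, as against 3414 of all tested genes, or 19.3%. All 3 pLB arrays lay above all 3 pLUM arrays for 20 members and below them for 13, where 35.7% and 33.5% of all genes did so.

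**Figure D1:**
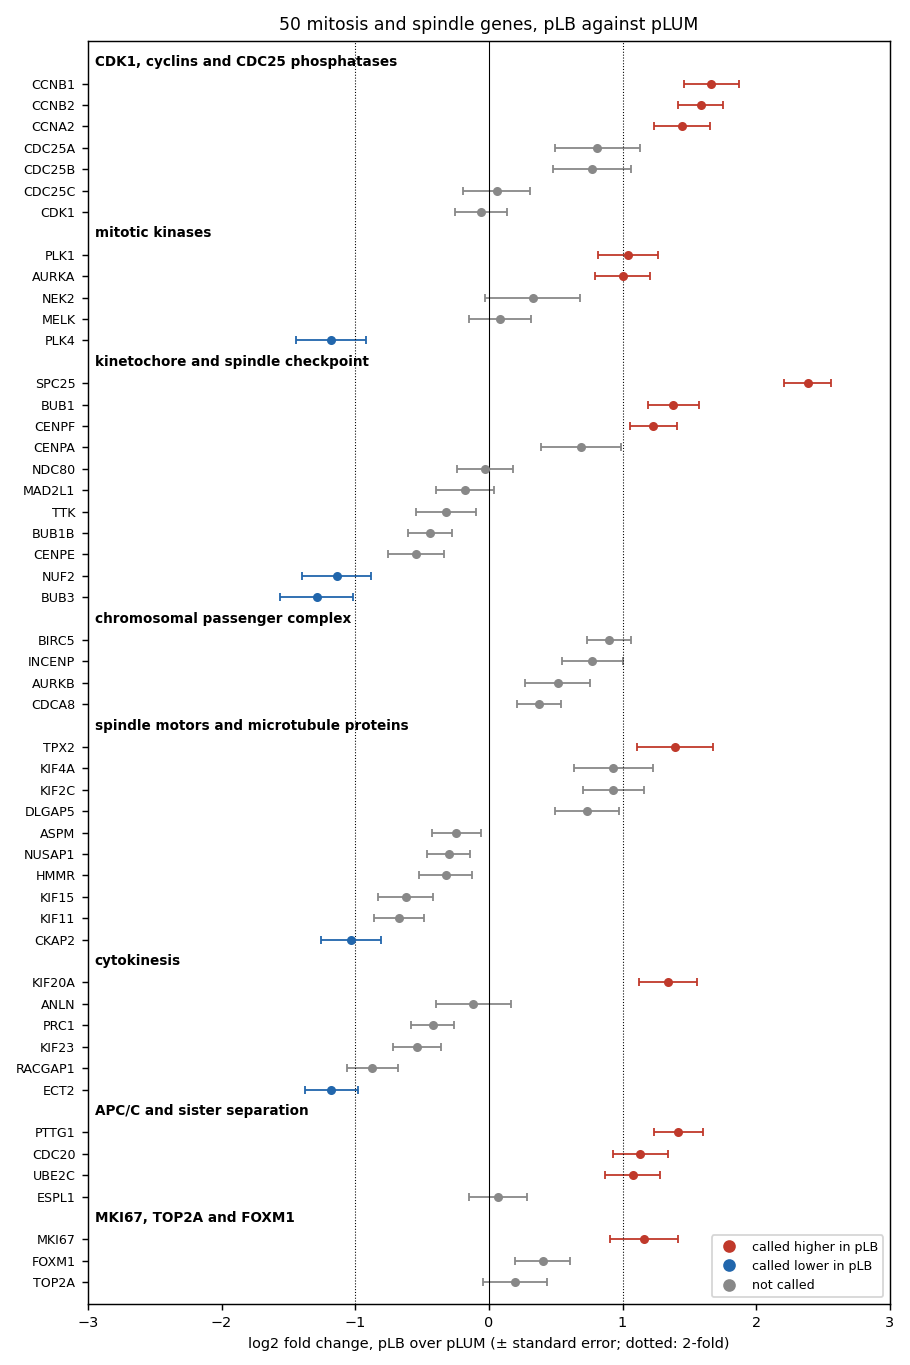
Log2 fold change of pLB over pLUM for each of the 50 genes (points, with standard errors as bars; 3 arrays per line), grouped by role and ordered by size, with dotted lines at 2-fold. Cyclins and the genes of APC/C partners and sister separation lie to the right of 0, cytokinesis genes other than KIF20A lie to its left, and kinetochore genes spread from BUB3 at -1.29 to SPC25 at 2.39.

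With slide as a block, where the lines are compared through pLB replicate 1 alone so that slide and that sort cannot be told apart, 10 members were called higher and 5 lower, beside 23.6% and 25.4% of all genes, and the median of the members was 0.11. AURKA, PLK1, KIF20A, UBE2C and MKI67 were then no longer called and CDC25A was called higher. The median of the kinetochore genes was then -0.37, that of the spindle motors -0.43 and that of the mitotic kinases 0.04, against -0.18, -0.27 and 0.33 without the block. With another background correction (normexp), 8 members were called higher and 2 lower, beside 14.5% and 17.5% of all genes. CCNB2, BUB1, SPC25, CENPF, TPX2 and PTTG1 were called higher under all 18 alternatives that were run.

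Letters in the promoters were compared next, because late cell-cycle genes are known for a CHR element (TTTGAA or TTCGAA), read by the MuvB complexes, and for CCAAT boxes, read by NF-Y. RefSeq sequence (GRCh38.p14) was at hand for the 250 bases before the start site of 42 members, and not for AURKA, BUB3, TTK, BIRC5, TPX2, RACGAP1, UBE2C and FOXM1. On either strand, CCAAT was found in 30 of the 42, or 71.4%, and in 32% of all 35116 promoters of the table. CHR letters were found in 22 of the 42, or 52.4%, and in 14.3% of all promoters, each time as TTTGAA. E2F-like letters (TTGGCGC or TTCCCGC) were found in 8 members, or 19%, and in 7.81% of all promoters. TTCGAA reads the same on both strands, and TTGGCGC can share its first bases with the complement of a CCAAT box.

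CCAAT stood before all 11 of the called-higher members that had a sequence, before 18 of 27 members not called and before 1 of 4 called lower. CHR letters stood before 5 of 11, 16 of 27 and 1 of 4. The numbers are small, the comparison was made after the calls were known, and no test was run on it. The 130 bases before the start site are printed for 4 members that were higher in pLB and 2 that were lower, to show the spacing of the boxes, with CCAAT (or its complement) and CHR letters in capitals and the start site just after the last base.
CCNB1 (chr5:69167020-69167149, plus strand): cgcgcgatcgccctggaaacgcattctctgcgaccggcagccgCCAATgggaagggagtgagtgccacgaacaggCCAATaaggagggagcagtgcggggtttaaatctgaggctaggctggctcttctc
CCNB2 (chr15:59105016-59105145, plus strand): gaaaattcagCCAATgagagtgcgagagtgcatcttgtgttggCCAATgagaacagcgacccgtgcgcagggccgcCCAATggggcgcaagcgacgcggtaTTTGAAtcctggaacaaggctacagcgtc
SPC25 (chr2:168890431-168890560, minus strand): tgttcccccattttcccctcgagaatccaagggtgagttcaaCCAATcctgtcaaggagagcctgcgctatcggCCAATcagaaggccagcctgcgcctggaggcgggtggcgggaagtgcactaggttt
PLK1 (chr16:23678759-23678888, plus strand): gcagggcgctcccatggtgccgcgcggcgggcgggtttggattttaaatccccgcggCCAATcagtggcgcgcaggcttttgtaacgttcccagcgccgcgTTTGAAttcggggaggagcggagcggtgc
NUF2 (chr1:163321824-163321953, plus strand): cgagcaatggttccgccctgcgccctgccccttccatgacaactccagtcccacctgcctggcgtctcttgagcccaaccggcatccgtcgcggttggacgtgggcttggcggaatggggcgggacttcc
PLK4 (chr4:127880763-127880892, plus strand): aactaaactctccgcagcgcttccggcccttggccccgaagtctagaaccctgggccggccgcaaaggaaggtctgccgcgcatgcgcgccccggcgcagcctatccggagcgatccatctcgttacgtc

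In CCNB1 and in SPC25 a pair of CCAAT boxes lay 32 bases apart, first base to first base. CCNB2 had 3 of them in a row at spacings of 33 and 33 bases, followed by CHR letters that began 29 bases before the start. PLK1 had CHR letters at the same distance of 29 bases and a CCAAT box at 73. NUF2 and PLK4, called lower, held neither set of letters in the 250 bases searched, and nor did CKAP2. ECT2, the other lower gene with a sequence, held CCAAT at 97 and 58 and CHR letters at 115. Such spacing was not particular to the higher genes. NEK2 and HMMR, not called, held pairs at 32 and 33 bases, while neighbouring boxes of the higher genes BUB1, KIF20A and CDC20 lay 25, 27 and 45 bases apart. A match is a match of letters only, and its absence says only that these letters are not in the window.

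**Figure D2:**
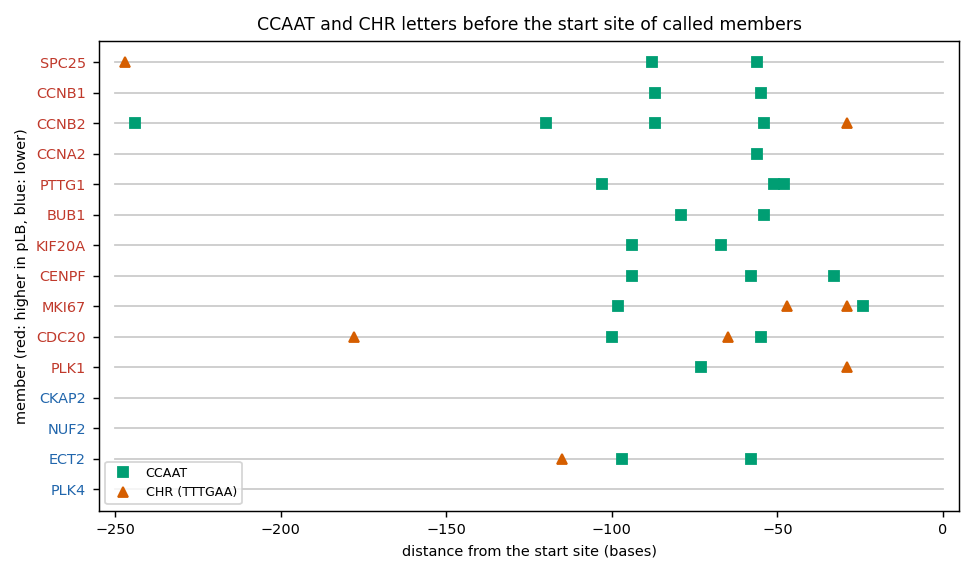
Positions of CCAAT (squares) and CHR letters (triangles), in bases from the start site, for the 15 called members with a promoter sequence, ordered by their change from SPC25 (highest) to PLK4 (lowest). Squares stand on each of the 11 gene lines of higher members, mostly within the last 100 bases, and among the 4 lower members on the ECT2 line.

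CDK1, its cyclins and the CDC25 phosphatases came first in the order of mitosis. All 3 cyclins were called higher in pLB, or 42.9% of the 7 genes of this role, beside 22.7% of all genes. None of the 7 was called lower, beside 23% of all genes, and their median log2 fold change was 0.81. With normexp 2 of the 7 were called higher and the median was 0.65. The CCNB1 call rests on 1 probe, and its other probe, given below, was not called. CCNB1, the cyclin B that carries CDK1 into the nucleus, read 0.63, 0.65 and 0.65 in pLUM and 2.23, 2.69 and 2.01 in pLB. The pLUM values lay close together (SD 0.01) and each pLB value lay well above them, a change of 1.67 ± 0.21 (3.17-fold, limma adjusted p = 0.000355). CCNB2, the second cyclin B, read 0.45, 0.50 and 0.58 in pLUM and 1.92, 2.32 and 2.05 in pLB. It differed by 1.58 ± 0.17 (limma adjusted p = 0.000172) with no overlap. CCNA2, the cyclin of S phase and early mitosis, was dimmer, at -2.97, -2.83 and -3.10 in pLUM against -1.76, -1.14 and -1.67 in pLB. Its change was 1.45 ± 0.21 (limma adjusted p = 0.0008), and 0.69 with the normexp correction, under which it was not called.

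The kinase that these cyclins activate did not follow them. CDK1 read 1.78, 1.87 and 1.43 in pLUM and 1.48, 1.86 and 1.58 in pLB. The lines overlapped fully and the change was -0.06 ± 0.19, with a 95% interval from -0.51 to 0.40. The changes of CCNB1 and CDK1 differed by 1.72 ± 0.18 on the log2 scale. An exact permutation test over the 6 arrays gave two-sided p = 0.1, the smallest that 3 against 3 arrays can give. The adjusted p was 0.1 over 4 such pairs, which were chosen after their values were seen. CCNB1 did not overlap between the lines and CDK1 varied little, so this p followed from those values and adds no support. The CCNB1 change used here is that of its brighter probe alone. CDC25A and CDC25B, phosphatases that activate cyclin-dependent kinases, had changes of 0.81 and 0.77 with adjusted p of 0.0564 and 0.0519 in limma. Both overlapped between the lines. CDC25A was dim, and its change was 0.06 with normexp and 1.34 with slide as a block. CDC25C, the form most tied to mitotic entry, had a change of 0.06 ± 0.25.

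CCNB1 was read by a pair of probes that disagreed. The brighter of them, which gave the values above, lies at base 1334 of the transcript and at chr5:68471363-68473123 of hg19, an interval longer than the probe that therefore crosses an intron. It is printed because the whole CCNB1 result rests on it.
CCNB1 probe at base 1334: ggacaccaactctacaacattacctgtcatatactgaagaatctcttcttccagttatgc

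The other probe lies at base 1968 of the transcript, at chr5:68473872-68473931. It read 0.41, 0.50 and 0.10 in pLUM and -0.14, 0.40 and -0.20 in pLB, a change of -0.31 ± 0.22 that was not called. The changes of these probes differed by 1.98 ± 0.13 (exact permutation test, two-sided p = 0.1, the smallest possible here). This pair, too, was chosen after its values were seen, so its p adds no support. Averaged over its probes, CCNB1 changed by 0.68 and was not called. The files name the gene and the position of each probe but give no exon or coding annotation.

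Of the 5 mitotic kinases, PLK1 and AURKA were called higher, PLK4 was called lower, and NEK2 and MELK were not called. The shares were 40% higher and 20% lower, beside 22.7% and 23% of all genes. PLK1, the Polo-like kinase of spindle assembly and mitotic exit, read -3.59, -3.43 and -3.14 in pLUM and -2.50, -1.97 and -2.57 in pLB. It changed by 1.04 ± 0.22 (limma adjusted p = 0.00529), by 0.88 with slide as a block and by 0.25 with normexp, neither of them called. Without pLUM replicate 1 its change was 0.94 and without pLB replicate 2 it was 0.85, below the 2-fold threshold in both cases. A dimmer PLK1 probe, at base 646 of the transcript, read -5.22, -2.99 and -3.80 in pLUM and -4.78, -4.52 and -3.99 in pLB, and its spread covered any difference (-0.42 ± 0.54).

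AURKA, the centrosomal Aurora kinase, stood just at the threshold, 2.00-fold higher with a standard error of 0.21 on the log2 scale, and was not called in 5 of the 18 alternatives. PLK4, the master kinase of centriole duplication, went the other way. It read -1.87, -2.03 and -2.44 in pLUM and -3.74, -3.23 and -2.92 in pLB (probe at chr4:128816182-128816241, plus strand). All pLB arrays lay below all pLUM arrays, a change of -1.18 ± 0.26 (limma adjusted p = 0.00595), and without pLB replicate 1, its lowest array, it was -0.96 and not called. NEK2, a kinase of centrosome separation, changed by 0.33 ± 0.35 with overlap, and by -0.32 with slide as a block, where pLB is replicate 1 alone. MELK, a kinase highly expressed in dividing cells, changed by 0.08 ± 0.23.

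The kinetochore and checkpoint genes had the widest range of any role. Of 11, 3 were called higher and 2 lower, or 27.3% and 18.2%, beside 22.7% and 23% of all genes. Their median was -0.18. SPC25, a subunit of the NDC80 complex that grips the microtubule, read -1.93, -1.85 and -1.94 in pLUM and 0.32, 0.74 and 0.37 in pLB (probe at chr2:169727956-169728015, minus strand). It was 5.23-fold higher (2.39 ± 0.18, limma adjusted p = 2.77e-05), and the gap between the lines was far wider than the spread within either. Its promoter is the one printed above with CCAAT boxes 32 bases apart. NUF2, another subunit of the same complex, read 0.60, 0.62 and 0.26 in pLUM and -1.13, -0.57 and -0.22 in pLB (chr1:163325144-163325203, plus strand). It was lower on every pLB array (-1.14 ± 0.26, limma adjusted p = 0.00662), though without pLB replicate 1 the change was -0.89 and not called.

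NDC80, the subunit that names the complex, read 1.00, 1.01 and 0.58 in pLUM and 0.54, 0.94 and 1.01 in pLB. The lines overlapped and the change was -0.03 ± 0.21, with a 95% interval from -0.53 to 0.46. SPC24, the fourth subunit, is not a member and was looked up after the others were seen. Its change was 0.38 ± 0.17 (limma adjusted p = 0.0865). The 4 subunits of this complex thus held 1 gene called higher, 1 called lower and 2 not called. The changes of SPC25 and NUF2 differed by 3.53 ± 0.28, or 11.5-fold (exact permutation test, two-sided p = 0.1, the smallest possible here). The pair was chosen after its values were seen. Neither gene overlapped between the lines, so this p was fixed in advance and adds no support.

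BUB1, a checkpoint kinase of the kinetochore, was called higher. It read -1.55, -1.41 and -1.70 in pLUM and -0.45, 0.08 and -0.15 in pLB, a change of 1.38 ± 0.19 (limma adjusted p = 0.000627). BUB3, which brings BUB1 and BUB1B to the kinetochore, was called lower. It read 4.01, 4.01 and 3.19 in pLUM and 2.34, 2.26 and 2.74 in pLB (chr10:124924177-124924236, plus strand), a change of -1.29 ± 0.27 (limma adjusted p = 0.00476). The changes of BUB1 and BUB3 differed by 2.67 ± 0.30 (exact permutation test, two-sided p = 0.1, the smallest possible here). For this pair, also chosen after its values were seen and without overlap in either gene, the p was again fixed in advance. The called BUB3 probe lies at base 2054 of NM_004725, the only RefSeq transcript listed for it. A second BUB3 probe, listed only for NM_001007793 and at base 524 of it, changed by -0.15 ± 0.16. The 2 BUB3 probes together gave -0.72, which was not called.

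CENPF, a kinetochore protein that accumulates in G2, was higher by both of its probes. The brighter read 2.87, 3.02 and 3.15 in pLUM and 4.05, 4.43 and 4.25 in pLB, a change of 1.23 ± 0.18 (limma adjusted p = 0.000697), and the dimmer changed by 1.42 ± 0.26 (limma adjusted p = 0.00255). No array of one line overlapped the other. The remaining kinetochore genes were not called. BUB1B, TTK and MAD2L1, which with BUB1 and BUB3 make up the checkpoint, changed by -0.44, -0.32 and -0.18. CENPE, a kinetochore motor, changed by -0.55 ± 0.21 and was lower on all pLB arrays, and CENPA, the histone that marks the centromere, changed by 0.69 ± 0.30 with overlap.

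The chromosomal passenger complex, which corrects faulty attachments and later directs cytokinesis, had no gene called and a median of 0.64, which was 0.28 with slide as a block. Its survivin subunit BIRC5 changed by 0.90 ± 0.16, INCENP, the scaffold, by 0.77 ± 0.23, AURKB, the kinase, by 0.51 ± 0.24, and CDCA8, or borealin, by 0.38 ± 0.16. All pLB arrays lay above all pLUM arrays for the first pair and for CDCA8, but not for AURKB. Of all tested genes, 35.7% lay above in that way. BIRC5 and INCENP had adjusted p of 0.00222 and 0.0212 in limma and missed the 2-fold threshold. With slide as a block INCENP changed by 0.30 (limma adjusted p = 0.308) and AURKB by 0.16. AURKB was also dim, from -4.20 to -3.10 over the 6 arrays, and its change was -0.21 with normexp.

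Of the 10 spindle motors and microtubule proteins, TPX2 was called higher and CKAP2 lower, or 10% each way, beside 22.7% and 23% of all genes. In 4 of them all pLB arrays lay above all pLUM arrays and in 4 below, near the shares of all genes given above, and the median was -0.27. TPX2, which activates AURKA on the spindle, read -1.15, -0.89 and -0.63 in pLUM and 0.74, 0.85 and -0.08 in pLB. The change was 1.39 ± 0.28 (limma adjusted p = 0.00405). CKAP2, a microtubule-stabilizing protein, read 0.27, 0.26 and -0.21 in pLUM and -0.90, -0.64 and -1.23 in pLB (chr13:53050394-53050453, plus strand). Its change of -1.03 ± 0.23 (limma adjusted p = 0.00559) was not called in 6 of the 18 alternatives, and a second, dimmer probe changed by -0.38 ± 0.29. Another probe named CKAP2 lies on chr9 in the files and stood above background on no array.

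Upward without a call were KIF2C, a kinesin that depolymerizes microtubules, at 0.93 ± 0.23, KIF4A, a chromosome-arm kinesin, at 0.93 ± 0.30, and DLGAP5, a kinetochore-fiber protein, at 0.74 ± 0.24. Each had an adjusted p between 0.00928 and 0.0297 in limma. KIF4A was dim, its change was 0.23 with normexp, and a second KIF4A probe changed by 0.81 ± 0.71. Downward without a call were KIF11, the motor that pushes the spindle poles apart, at -0.67 ± 0.19, and KIF15, a second motor with that task, at -0.62 ± 0.21. Their adjusted p in limma were 0.0167 and 0.0324, and neither overlapped between the lines. NUSAP1, HMMR and ASPM, which bundle microtubules or focus the poles, changed by -0.30, -0.32 and -0.24.

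Of the 6 cytokinesis genes, 1 was called higher and 1 lower, or 16.7% each way, beside 22.7% and 23% of all genes. All but KIF20A had a negative change, 4 of them with every pLB array below every pLUM array. Of all tested genes, 33.5% lay below in that way. ECT2, the exchange factor that switches on RhoA at the cleavage furrow, read -0.91, -0.61 and -1.19 in pLUM and -2.20, -1.96 and -2.09 in pLB (chr3:172538330-172538389, plus strand). The change was -1.18 ± 0.20 (limma adjusted p = 0.00151). RACGAP1, which recruits ECT2, changed by -0.87 ± 0.19, KIF23, its partner in the centralspindlin complex, by -0.54 ± 0.18, and PRC1, the bundler of the central spindle, by -0.42 ± 0.16. In limma their adjusted p were 0.0053, 0.0353 and 0.0548, and none reached the 2-fold threshold. A dimmer KIF23 probe changed the other way, by 0.52 ± 0.19, so that the mean of its probes was -0.01. ANLN, the anillin of the contractile ring, changed by -0.12 ± 0.28.

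KIF20A, the kinesin that carries the passenger complex and PLK1 to the central spindle, stood apart from that group. It read -2.63, -2.66 and -2.85 in pLUM and -1.76, -1.02 and -1.35 in pLB, a change of 1.34 ± 0.22 (limma adjusted p = 0.00142). With slide as a block it was 0.96 and with normexp 0.69, neither called.

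The role of APC/C partners and sister separation holds an activator and an enzyme of the APC/C, securin and separase, but no subunit of the complex itself. Of these 4, 3 were called higher, or 75%, beside 22.7% of all genes, with a median log2 fold change of 1.104. Under normexp the count fell to 2 genes, where 14.5% of all genes were called higher, and the role's median to 0.92. The slide block, in which pLB is replicate 1 alone, put that median at 0.97. Subunits of the complex on a wider list of mitosis genes, looked up after the values were seen, went both ways, with ANAPC13 called higher at 1.41, ANAPC4 and ANAPC5 called lower at -1.06 and -1.54, and the others not called. PTTG1, the securin that holds separase in check, read 2.83, 2.74 and 2.51 in pLUM and 3.92, 4.31 and 4.11 in pLB. It changed by 1.42 ± 0.18 (limma adjusted p = 0.000405). CDC20, the activator of the APC/C in mitosis, read -1.83, -2.41 and -2.21 in pLUM and -0.845, -0.997 and -1.21 in pLB. Its change was 1.13 ± 0.21 (limma adjusted p = 0.00241), with no overlap between the lines, and 0.70 with normexp. UBE2C, the ubiquitin-conjugating enzyme of the APC/C, changed by 1.08 ± 0.20, and by 0.72 with slide as a block, where it was not called. ESPL1, the separase that securin inhibits, changed by 0.07 ± 0.22 with a 95% interval from -0.45 to 0.58.

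MKI67, the source of the Ki-67 antigen by which dividing cells are counted in tumors, was called higher by 2 of its 3 probes. Both are printed because they carry the Ki-67 result.
MKI67 probe at base 1614 (chr10:129913193-129913252, minus strand): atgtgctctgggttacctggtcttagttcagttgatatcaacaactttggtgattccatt
MKI67 probe at base 2659 (chr10:129907580-129907639, minus strand): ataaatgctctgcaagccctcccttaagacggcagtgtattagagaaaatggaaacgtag

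The brighter, at base 1614, is listed in the files for NM_002417 alone. It read -1.36, -1.46 and -1.60 in pLUM and -0.83, -0.21 and 0.10 in pLB, a change of 1.16 ± 0.25 (limma adjusted p = 0.00546). The probe at base 2659, listed also for NM_001145966, read -1.84, -1.59 and -1.85 in pLUM and -0.69, 0.05 and 0.40 in pLB, a change of 1.68 ± 0.29 (limma adjusted p = 0.0017). By both probes pLB replicate 1 was the pLB array nearest to pLUM, and it is the pLB array on the slide of the pLUM arrays. With slide as a block the brighter probe changed by 0.65, below the 2-fold threshold, and the probe at base 2659 by 1.07, above it. With normexp the brighter probe changed by 0.84 and was not called, and the probe at base 2659 changed by 1.24 and was called. The remaining MKI67 probe, at base 11719, stood above background on 3 of the 6 arrays and changed by 0.01 ± 0.53.

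TOP2A, the topoisomerase that untangles sister chromatids and a usual companion of Ki-67, was not called. It read -3.94, -3.53 and -3.35 in pLUM and -3.47, -3.06 and -3.69 in pLB, with overlap and a change of 0.20 ± 0.24. Its 95% interval ran from -0.36 to 0.76, and with normexp the value was -0.30. FOXM1, a transcription factor of G2 genes, changed by 0.40 ± 0.20 and was not called.

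**Figure D3:**
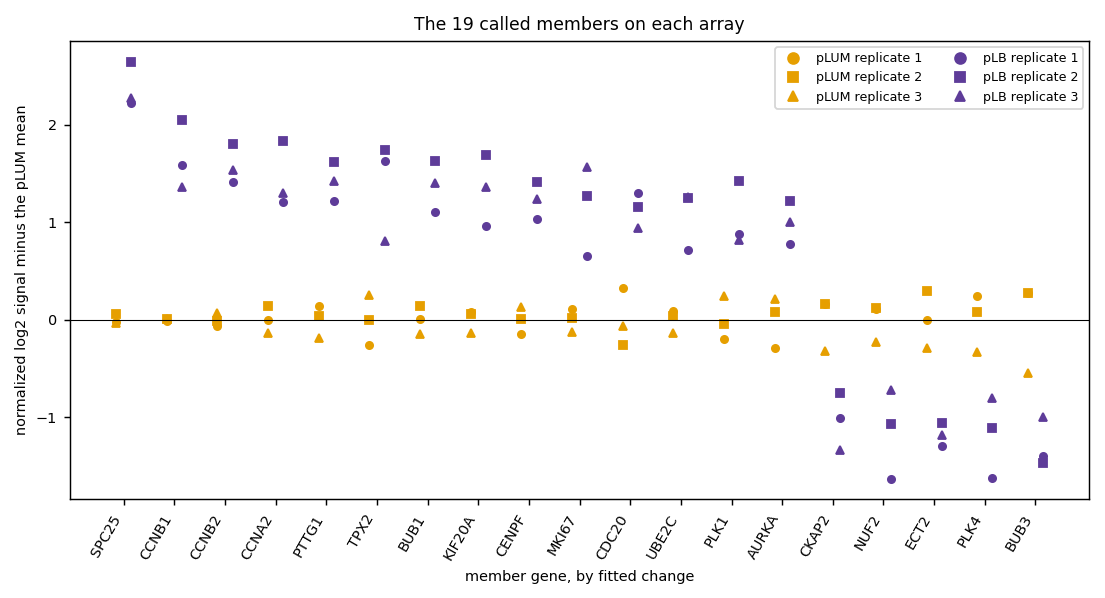
Normalized log2 signal of the 19 called members on each of the 6 arrays, minus the gene's pLUM mean (orange, pLUM; purple, pLB; marker shape gives the replicate). No gene overlaps between the lines, and pLB replicate 1 (circles) is the pLB array nearest to pLUM for BUB1, KIF20A, MKI67, UBE2C and AURKA, among others.

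Probes of the same gene could be compared for 10 members. In 5 of the 10 one probe was called and another was not (CCNB1, PLK1, BUB3, CKAP2 and MKI67), in 1 all probes were called the same way (CENPF), and in 4 none was called. Probes had changes of opposite sign in 4 genes, CCNB1, PLK1, ASPM and KIF23, and in no gene were they called in opposite directions. The other 40 members rested on 1 tested probe, among them 13 of the 19 called genes. Of the 61 tested member probes 16 were called higher and 5 lower, where 21.9% and 23.7% of all probes were.

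**Figure D4:**
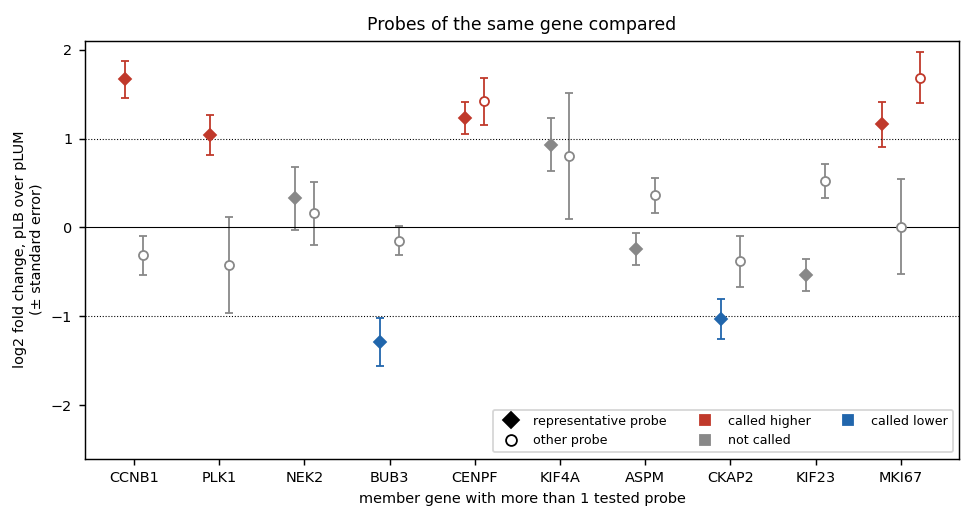
Log2 fold change of pLB over pLUM (± standard error) for each tested probe of the 10 members with more than 1, the representative probe as a filled diamond and others as open circles. The CENPF probes and the called MKI67 probes lie above 2-fold, while the CCNB1 probes lie at 1.67 and -0.31 and the BUB3 probes at -1.29 and -0.15.

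The 3 pLB sorts were not alike in these genes. pLB replicate 2 gave the highest pLB value for 34 of the 50 members, or 68%, as against 16.0% of all tested genes, and the lowest for 1. pLB replicate 1 gave the lowest for 29, or 58%, as against 39.1% of all genes. The members' median signal relative to each gene's mean over 6 arrays was -0.28, -0.16 and -0.20 in pLUM and -0.05, 0.41 and 0.03 in pLB. All pLB medians lay above all pLUM medians, and the gap from pLB replicate 2 to the other pLB arrays was wider than the gap from those to pLUM. For all genes the same medians lay between -0.06 and 0.12. Without pLB replicate 2, 11 members were called higher and 5 lower.

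**Figure D5:**
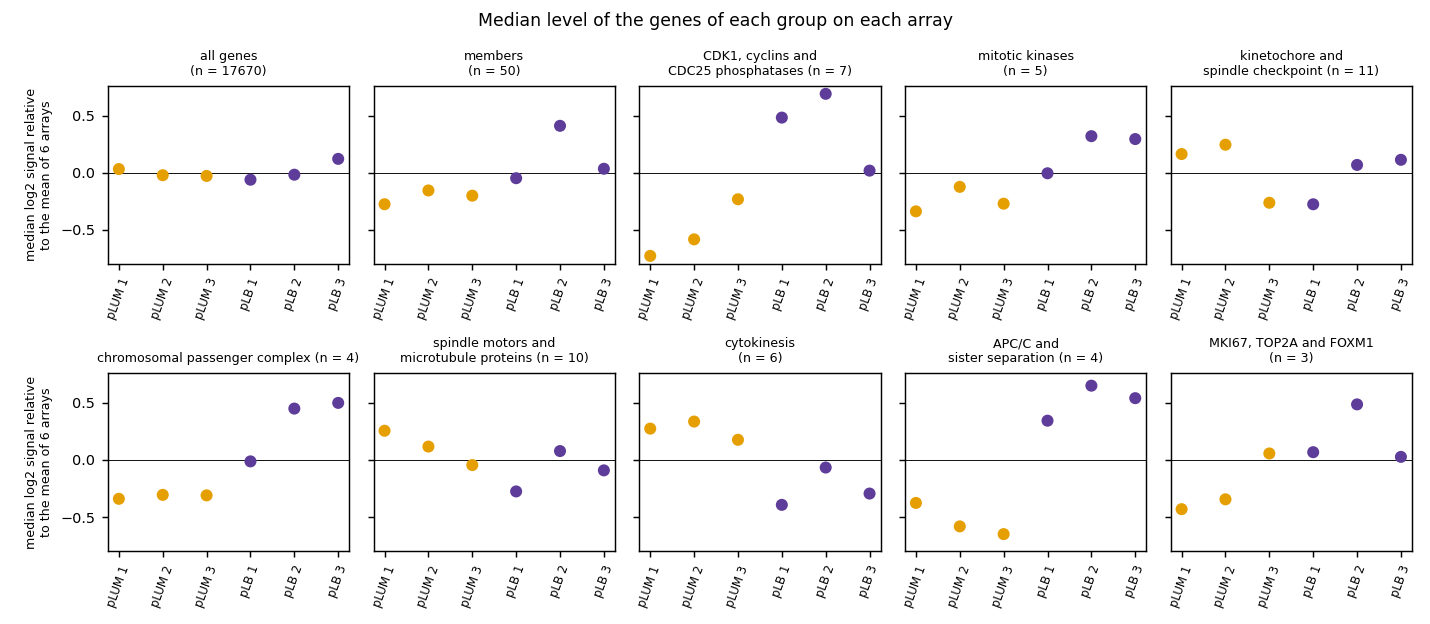
Median log2 signal relative to each gene's mean over the 6 arrays, for all tested genes, the 50 members and each role (n is the number of genes; orange, pLUM; purple, pLB). The role of APC/C partners and sister separation is higher in every pLB array (0.34 to 0.65) than in any pLUM array (-0.65 to -0.38), while the cytokinesis genes are lower (-0.39 to -0.07 in pLB, 0.18 to 0.34 in pLUM).

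Other genes of the same machinery were called in both directions. Of 108 tested mitosis genes outside the 50, 16 were called higher and 14 lower, or 14.8% and 13.0%, beside 22.7% and 23% of all genes, and their median was 0.11, as against -0.019 with normexp and 0.0015 with the slide block. The largest called changes upward were in NEK6, a mitotic kinase, at 2.01, NDE1, a dynein partner, at 1.98, CENPH, of the inner kinetochore, at 1.98, and GSG2, the haspin kinase, at 1.87. Downward they were in NSL1 and MIS12, of the MIS12 complex that holds NDC80 to the centromere, at -2.10 and -1.47, ANAPC5, an APC/C subunit, at -1.54, and SASS6, a centriole protein, at -1.48.

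Among 25 regulators of the DREAM, MuvB and E2F complexes and NF-Y, 5 were called higher and 2 lower, or 20% and 8%, beside 22.7% and 23% of all genes. CDKN1A, the p21 inhibitor, was higher by 2.47, TFDP2, an E2F partner, by 2.15, RBL1, the p107 pocket protein, by 1.62, and NFYA by 1.22. NFYB and E2F8, a repressor, were lower, at -1.81 and -1.46. NFYA, NFYB and NFYC are the subunits of NF-Y, the factor that binds CCAAT, and NFYC was called higher too, by 1.22, so that 2 subunits were called higher and 1 lower. CDKN1A stood above background on 1 of the 3 pLUM arrays.

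Of 50 DNA replication genes, 11 were called higher and 5 lower, or 22% and 10%, beside 22.7% and 23% of all genes. Their median was 0.22, and 0.093 with slide as a block. MCM5 and MCM2, of the replicative helicase, were higher by 2.37 and 1.90, GINS2, a helicase cofactor, by 1.55, and CDT1, which loads the helicase, by 1.44. LIG1, the ligase that joins the lagging strand, was lower at -1.79, as were POLE2, a polymerase subunit, at -1.38, RFC5, of the clamp loader, at -1.23, and GMNN, the inhibitor of CDT1, at -1.10.

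The 15 G1 cyclins, kinases and inhibitors had 8 genes called higher and 2 lower, or 53.3% and 13.3%, beside 22.7% and 23% of all genes. Their median was 1.40. With slide as a block the median was 0.98 and with normexp it was 0.14. CCND2, a D-type cyclin that stood above background on no pLUM array, was at least 29.9-fold higher in pLB, where the bound sets the pLB mean against the lowest signal well above background in pLUM. CDK6, a kinase of the D-type cyclins, was higher by 6.98. The inhibitors CDKN2A and CDKN1C were higher too, by 3.37 and 2.78, while CDKN1B and CDKN2C were lower, at -1.44 and -1.19. Beside these, the largest change of a mitosis member, that of SPC25, was 2.39.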

How the data were processed

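RNA of 3 pLUM and 3 pLB sorts was profiled on Agilent 4x44K arrays with 1 dye. The deposited values are spot intensities from Feature Extraction 10.10.1.1, background-corrected by the authors within an array and not normalized between arrays, with probe positions of hg19. Control spots and outlier spots (296 to 387 of 43118 per array) were dropped, intensities were divided by the array's 75th percentile and logged to base 2, and replicate spots were averaged. Probes that at least 3 of the 6 arrays detected above background entered 1 limma fit (limma 3.58.1 in R 4.3.3) with Benjamini-Hochberg adjustment over all of them. Each gene was represented by its tested probe of highest mean signal. Pairs of probes were compared by exact permutation in scipy. The fit was tested on simulated data. Values by array are given for the 15 called members that changed most, members called lower, MKI67, TOP2A, CCNB1, CDK1 and members with a called probe and another under 1.2-fold or called the other way, to which NDC80 and PLK1 were added after their values were seen; other lists name at most 4 called genes in each direction. The members and lists were chosen with earlier results of these data known. The alternatives varied background, scaling, filter, threshold, test, probe rule and block, and left out single arrays. The methods' t-test, which they state for the study as a whole, was one of them. The number of arrays limits precision.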

Additional observations from a re-analysis of the deposited data

How the results depend on the processing

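Counts of calls were recomputed under 18 alternatives. Only counts that differed from the main count by more than a factor of 1.5 are listed next. A direction left out was within that factor and does not stand for 0. Of all genes, normexp called 14.5% higher and 17.5% lower, and adjusted p with no fold threshold called 32.4% and 31.1%. With normexp, the members called were 8 higher and 2 lower (probes, 9 and 2), other mitosis genes 10 and 8, DREAM and E2F regulators 2 higher, DNA replication genes 3 lower, and G1 genes 5 higher and 1 lower. With spike-in scaling 1 member was lower (1 probe), other mitosis genes were 26 higher and 5 lower, DREAM and E2F regulators 8 higher, DNA replication genes 2 lower and G1 genes 1 lower. With no fold threshold 9 members were lower (9 probes), other mitosis genes 31 and 24, DREAM and E2F regulators 10 and 5, and DNA replication genes 12 lower. The mean of probes left 3 members and 1 G1 gene lower, quantile normalization 7 DNA replication genes higher, and detection on all 6 arrays 5 G1 genes higher. The members' median was 0.084 with normexp, 0.61 with spike-in scaling and 0.11 with slide as a block. Normexp moved the median of all genes by -0.24 and spike-in scaling by 0.26, and spike-in scaling put 60.8% of all calls higher in pLB, as against 49.6%. The causes were not tested. By the methods' t-test with the 2-fold threshold, 14 members were higher and 5 lower, both at their unadjusted threshold and after Benjamini-Hochberg adjustment.

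With 1 array left out, members called ranged from 11 to 16 higher and 3 to 6 lower (probes, 13 to 18 and 3 to 6), and their median from 0.27 to 0.45. Without pLB replicate 1, PLK4 and NUF2 were not called and 3 members were lower. DNA replication genes called lower ranged from 3 (without pLUM replicate 2) to 6.

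No called member reversed. Among uncalled members, signs turned with normexp for CDK1 (0.0065), CDC25C (-0.34), MELK (-0.074), NDC80 (0.00301), AURKB (-0.21) and TOP2A (-0.30), with spike-in scaling for CDK1 (0.21), MAD2L1 (0.084), NDC80 (0.23), ASPM (0.019) and ANLN (0.15), with slide as a block for CDC25C (-0.13) and NEK2 (-0.32), and with the mean of probes for ASPM (0.058). With 1 array left out the changes ranged through 0 for CDK1 (-0.19 to 0.033), CDC25C (-0.15 to 0.24), MELK (-0.064 to 0.27), NDC80 (-0.17 to 0.12), ANLN (-0.37 to 0.059) and ESPL1 (-0.079 to 0.20).

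Replicate numbers did not pair the samples: deviations from the line means of arrays with the same number correlated at -0.27, -0.09 and -0.22. With the replicate block the call was the same for 50 of 50 members.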
